A study of Mus musculus with 6 samples.

Results

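Skeletal muscle contracts when a nerve signal is turned into a pulse of calcium inside the fibre, and 10 genes of that chain were followed here in mouse myoblasts: Ryr1, Cacna1s, Trdn, Jph1, Casq1, Casq2, Atp2a1, Atp2a2, Chrna1 and Cav3. They were chosen by gene symbol, and all 10 were found among the 24028 genes of the count table. The cells were a clonal C2C12 line, an immortalised mouse myoblast line, carrying a doxycycline-inducible transgene called MMH and kept under puromycin selection. MMH joins the codon-altered amino-terminal part of mouse Dux, with its homeodomains, to the codon-altered part of human DUX4 that follows the DUX4 homeodomains. Doxycycline at 2 µg/ml was given to 3 separate cultures (induced) and withheld from 3 others (uninduced), each sequenced as 1 library. All 6 libraries come from 1 clone that carries the transgene, so effects of the drug and of the transgene cannot be told apart, and the duration of treatment is given as 18 h in the series description and as 36 h in the sample protocol.

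In a muscle fibre, acetylcholine opens its receptor at the neuromuscular junction and the membrane depolarises. The voltage sensor Cacna1s in the transverse tubule then opens the release channel Ryr1 in the facing membrane of the sarcoplasmic reticulum, the calcium store, at a junction called the triad that is held together by junctophilins. Calsequestrins bind calcium inside the store, and pumps of the Atp2a family return it there after each contraction. These genes are switched on mainly as myoblasts differentiate into myotubes, and proliferating myoblasts hold less of most of them.

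Libraries held 21.5 to 24.5 M counts. Levels are given in CPM, counts per M counts of a library size scaled by TMM, a method that sets aside genes of extreme change or level. The muscle lineage of the cells was checked with 6 myogenic markers (Myod1, Myf5, Des, Cdh15, Myog, Mymk), all of which had counts in every library. They do not tell proliferating from differentiating cells. Mean uninduced levels were 172 CPM for Myog and 27.6 CPM for Mymk, both linked to differentiation. All 6 were lower in induced cells, where their summed level was 836 to 871 CPM against 1650 to 1661 CPM in uninduced cells. Among markers of other cell types, the summed level was 8.98 to 9.24 against 9.71 to 12 CPM for 7 cardiac genes in uninduced and induced libraries, with Myl7 and Mybpc3 at no or 1 count in every library. Of the 4 cardiac genes tested, Nkx2-5 was higher (log2 fold change 2.48), Myh6 (-0.72) and Nppb (-1.85) were lower and Tnni3 was not called. For 4 smooth muscle genes the summed level was 2487 to 2762 against 1462 to 1542 CPM, with Smtn and Myh11 higher and Acta2 and Cnn1 lower. Most of that sum was Acta2, at 2518 and 1324 CPM on average, while Myh11 was at 0.114 and 0.814 CPM. The summed level was 30.5 to 33.5 against 22.4 to 23.5 CPM for 4 neuronal genes, with Snap25 and Rbfox3 without an uninduced count. Most of that sum was Map2 and Syn1. Map2 was lower (log2 fold change -0.76), at 20.8 and 12.3 CPM on average, and Syn1 was not called, at 11.5 and 10.7 CPM. For 3 leukocyte genes the summed level was 0.808 to 1.31 against 1.04 to 1.42 CPM. The part of these markers in the results below was not tested.

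The comparison asked how transcripts of excitation and calcium handling changed when the chimeric factor was switched on. Of the 10 genes, 3 were lower in induced cells (Ryr1, Atp2a1 and Atp2a2), 1 was higher (Jph1) and 6 did not pass the test (Cacna1s, Trdn, Casq1, Casq2, Chrna1 and Cav3). Their changes were small, between a log2 fold change of -1.04 for Casq1, which did not pass the test, and 0.86 for Jph1, with a median of -0.22 against -0.01 for all tested genes. In edgeR's quasi-likelihood test across 12969 genes, 41.2% were called lower and 41.3% higher at a Benjamini-Hochberg adjusted p of 0.05. The 3 lower calls among 10 genes are near the first share and the 1 higher call is below the second, a difference that was not tested. These counts rest on how libraries of very different composition are put on 1 scale. With upper-quartile scaling 9 of the 10 were called lower and 1 higher, where 47.7% of all genes were lower and 35.4% higher. With no scaling beyond library size 9 were called lower and 0 higher, where 76.7% of all genes were lower and 15.2% higher, and the median of all tested genes was -0.97. A change of scaling shifts all genes nearly alike. The median of the 10 genes therefore lay 0.21 below that of all tested genes under each of these 3 scalings. The count of 3 lower genes was also that of DESeq2, limma-voom and RLE scaling, where 38.5%, 41.0% and 40.4% of all genes were lower. It was 9 with the 20 most abundant induced genes taken out of the library size (50.3% of all genes), 7 without a count filter (31.6%), 4 with a replicate block (41.7%) and 1 in a test against a 1.5-fold change (19.4%). Without the second uninduced library it was 4 (39.3%) and without the third induced library 6 (39.1%). In bulk RNA, fewer cells expressing a gene and less of its RNA per cell cannot be told apart.

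**Figure D1:**
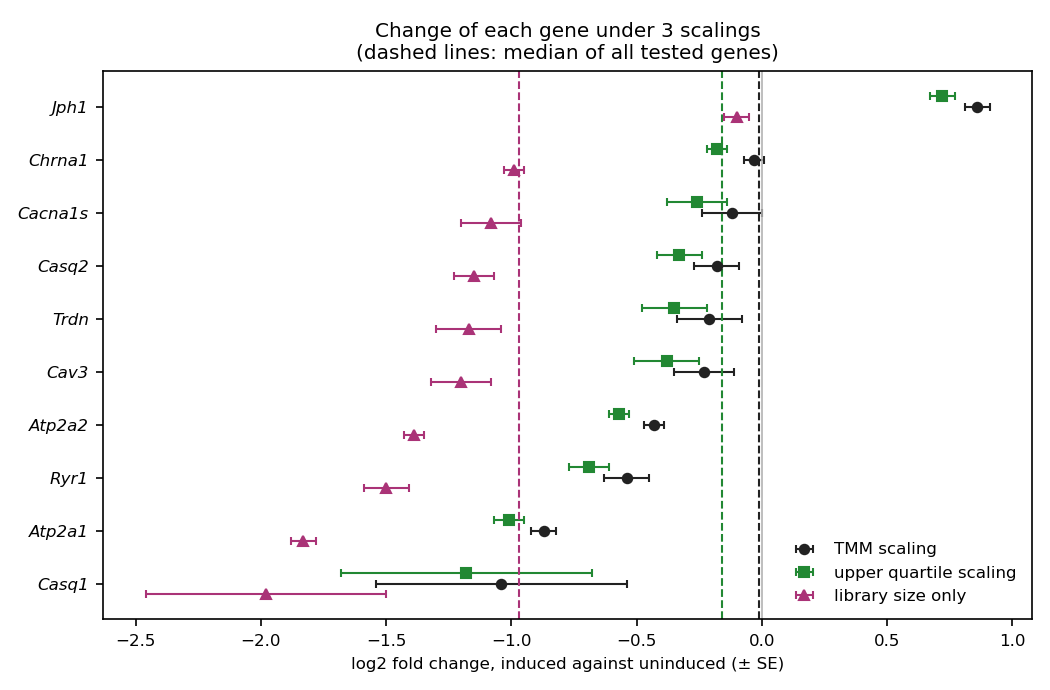
Log2 fold change of each of the 10 genes (x axis, ± SE from edgeR) under TMM scaling (circles), upper-quartile scaling (squares) and library size only (triangles), with dashed lines at the median of all tested genes under each. The order of the genes is the same under each scaling and the whole set shifts with it, so that Jph1 goes from 0.86 to -0.10 and Chrna1 from -0.03 to -0.99.

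The release channel fell, and its voltage sensor did not pass the test. Ryr1 (Entrez 20190, minus strand of chromosome 7, 29003344 to 29125179, GRCm38) encodes the calcium release channel of skeletal muscle. It was at 58.9, 49.9 and 45.8 CPM in the uninduced and at 38.6, 35.1 and 32.7 CPM in the induced libraries. The groups did not overlap, as for 83.1% of all tested genes, although the uninduced libraries spread widely. The fitted change was -0.54 ± 0.09 in log2 units (SE, edgeR adjusted p = 5.1e-05), or 1.45-fold lower. Cacna1s (Entrez 12292, chromosome 1, 136052750 to 136119822) encodes the voltage-sensing subunit of the L-type calcium channel. Its uninduced values of 8.20, 8.73 and 7.21 CPM overlapped the induced values of 8.72, 7.31 and 6.20 CPM, with a log2 change of -0.12 ± 0.12 (SE, edgeR adjusted p = 0.369). Without the third induced library it was 0.00. The number of Cacna1s counts per Ryr1 count, which needs no library scaling, was 0.139, 0.175 and 0.157 without doxycycline and 0.226, 0.208 and 0.190 with it. This ratio was 1.32-fold higher in induced cells and did not overlap between groups (exact permutation test, two-sided, p = 0.1, adjusted p = 0.133 over 4 ratios). With 3 libraries against 3 that test cannot give a p below 0.1.

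Triadin and junctophilin are structural partners of the release channel. Trdn (chromosome 10, 33080554 to 33476709), whose product anchors calsequestrin to the channel, was at 7.84, 5.89 and 6.26 CPM uninduced and 5.30, 6.60 and 5.51 CPM induced. The groups overlapped, and the log2 change was -0.21 ± 0.13 (SE, edgeR adjusted p = 0.152). Jph1 (Entrez 57339, minus strand of chromosome 1, 16964560 to 17097889), which ties the tubule membrane to the store, was the member that rose. Its values were 48.1, 44.1 and 43.8 CPM in the uninduced and 82.0, 83.3 and 82.0 CPM in the induced libraries, every induced value above every uninduced one. The fitted change was 0.86 ± 0.05 in log2 units (SE, edgeR adjusted p = 9.7e-14), or 1.82-fold, but -0.10 with library size only (edgeR adjusted p = 0.06). Against Ryr1 in the same library, Jph1 had 0.817, 0.883 and 0.956 counts per Ryr1 count uninduced and 2.12, 2.37 and 2.51 induced. That 2.64-fold shift, described after the values were seen and not tested, does not depend on scaling. The paralog Jph2, the junctophilin shared with heart muscle, fell, from 186 ± 7.72 to 44.5 ± 1.30 CPM (SD, n = 3), which is -2.07 ± 0.05 in log2 units (SE, edgeR adjusted p = 1.1e-21). Jph1 thus went from 0.243 ± 0.00540 to 1.85 ± 0.0448 counts per Jph2 count (SD, n = 3), a 7.62-fold shift in a ratio chosen after its values were seen and not tested.

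**Figure D2:**
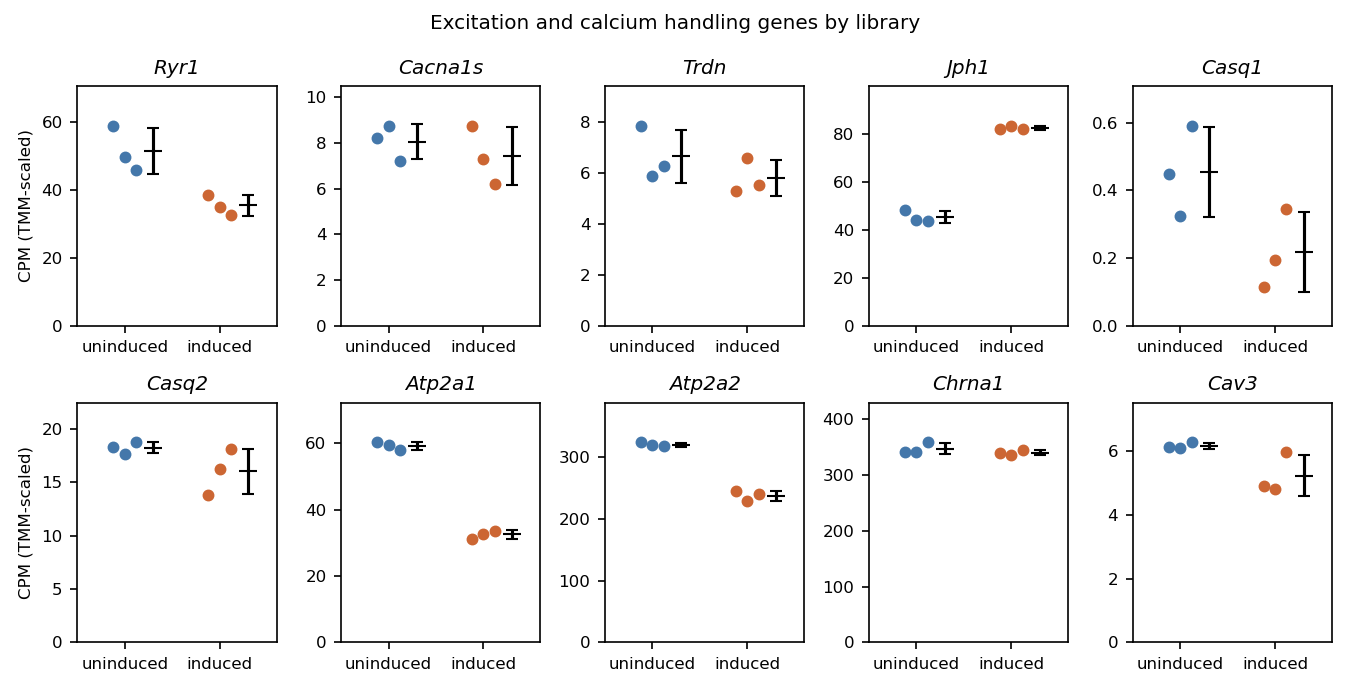
CPM on TMM-scaled library sizes (y axes, each starting at 0) of the 10 genes in the 3 uninduced and 3 induced libraries (points), with the mean and SD of each group beside them. Jph1 is higher in every induced library (82.0 to 83.3 against 43.8 to 48.1 CPM), and Atp2a1, Atp2a2 and Ryr1 are lower in every induced library. The Chrna1 points of the groups overlap, at 341 to 358 CPM uninduced and 336 to 344 CPM induced.

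The calsequestrins differed mainly in how much of each was present. Casq1, the fast-fibre calsequestrin, was near the detection limit with 15, 10 and 18 uninduced and 2, 3 and 6 induced counts, where 3 counts in a library correspond to 0.0898 to 0.0983 CPM uninduced and 0.171 to 0.194 CPM induced. The CPM values overlapped, at 0.324 to 0.590 uninduced and 0.114 to 0.344 induced. The fitted log2 fold change of -1.04 ± 0.50 (SE) missed the threshold (edgeR adjusted p = 0.0614), and the pooled ratio of induced to uninduced CPM was 0.481 with a 95% exact binomial interval of 0.224 to 0.949 that covers counting error only. The call was gained without the second uninduced library (-1.23, edgeR adjusted p = 0.0418) or without the third induced library (-1.55, edgeR adjusted p = 0.0327). Casq2, the calsequestrin of heart and slow fibres, was far more abundant, at 18.3, 17.6 and 18.7 CPM uninduced and 13.8, 16.2 and 18.1 CPM induced. The third induced library overlapped the uninduced ones, and the log2 change was -0.18 ± 0.09 (SE, edgeR adjusted p = 0.0532). Without that library it was -0.28 (edgeR adjusted p = 0.0107). There were 40.7, 54.5 and 31.6 Casq2 counts per Casq1 count without doxycycline and 122, 83.3 and 52.5 with it, and the groups overlapped (exact permutation p = 0.2, adjusted p = 0.2, where 0.1 is the smallest possible).

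Both calcium pumps fell, by 1.82-fold for the fast-fibre form and 1.34-fold for the widely expressed one. Atp2a1 (Entrez 11937, minus strand of chromosome 7, 126445858 to 126463108) was at 60.2, 59.4 and 58.0 CPM uninduced and 31.2, 32.6 and 33.6 CPM induced. The groups lay well apart, with a log2 change of -0.87 ± 0.05 (SE, edgeR adjusted p = 3.4e-13), or 1.82-fold lower. Atp2a1 shares 763 exonic bases with Rabep2 on the opposite strand, and the strand setting of the counting is not given in the sources used here. Rabep2 had fewer counts, 594 to 659 uninduced and 138 to 160 induced against 503 to 2011 for Atp2a1 over all libraries, and a log2 fold change of -1.13, and its part in the Atp2a1 value was not tested. Antisense exons annotated in GENCODE, whose genes were not analysed here, also overlap Cacna1s (1309 bases), Ryr1 (864), Casq1 (156), Atp2a2 (83, from an unclassified transcript) and Jph1 (34). Atp2a2 (Entrez 11938, minus strand of chromosome 5, 122453513 to 122502225), the pump of slow fibres and heart that many other cells also use, was at 324, 319.6 and 318 CPM uninduced and 245, 229 and 239.9 CPM induced. No induced value reached an uninduced one, and the log2 change was -0.43 ± 0.04 (SE, edgeR adjusted p = 7.2e-10), or 1.34-fold lower. Neither Atp2a2 nor Ryr1 passed a test against a 1.5-fold change (edgeR glmTreat adjusted p = 1 and 0.744), whereas Atp2a1 and Jph1 did. The number of Atp2a2 counts per Atp2a1 count was 5.38, 5.38 and 5.48 uninduced and 7.87, 7.05 and 7.13 induced. This within-library ratio was 1.36-fold higher in induced cells without overlap (exact permutation p = 0.1, adjusted p = 0.133).

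The muscle acetylcholine receptor is built from alpha subunits with beta, delta and either a gamma (fetal) or an epsilon (adult) subunit. Chrna1 (Entrez 11435, minus strand of chromosome 2, 73563215 to 73580338), the acetylcholine-binding alpha subunit, was at 341, 341 and 358 CPM uninduced and 339, 336 and 344 CPM induced. The groups overlapped, and the log2 change was -0.03 ± 0.04 (SE, edgeR adjusted p = 0.484). The other subunits fell under the same scaling. Chrnb1 went from 53.8 ± 2.40 to 35.5 ± 1.13 CPM (SD, n = 3), which is -0.60 ± 0.06 in log2 units (SE, edgeR adjusted p = 6.3e-10). Chrng was at -0.84 ± 0.07 and Chrnd at -1.08 ± 0.09 (SE). The adult subunit Chrne had 3 counts over all uninduced and 2 over all induced libraries, so its change could not be measured and the ratio of fetal to adult subunit could not be given. There were 6.64, 6.35 and 6.37 Chrna1 counts per Chrnb1 count uninduced and 9.87, 9.46 and 9.40 induced, a 1.48-fold shift without overlap (exact permutation p = 0.1, adjusted p = 0.133). Against Chrng and Chrnd, chosen after their values were seen and not tested, the shifts were 1.75-fold and 2.06-fold.

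**Figure D3:**
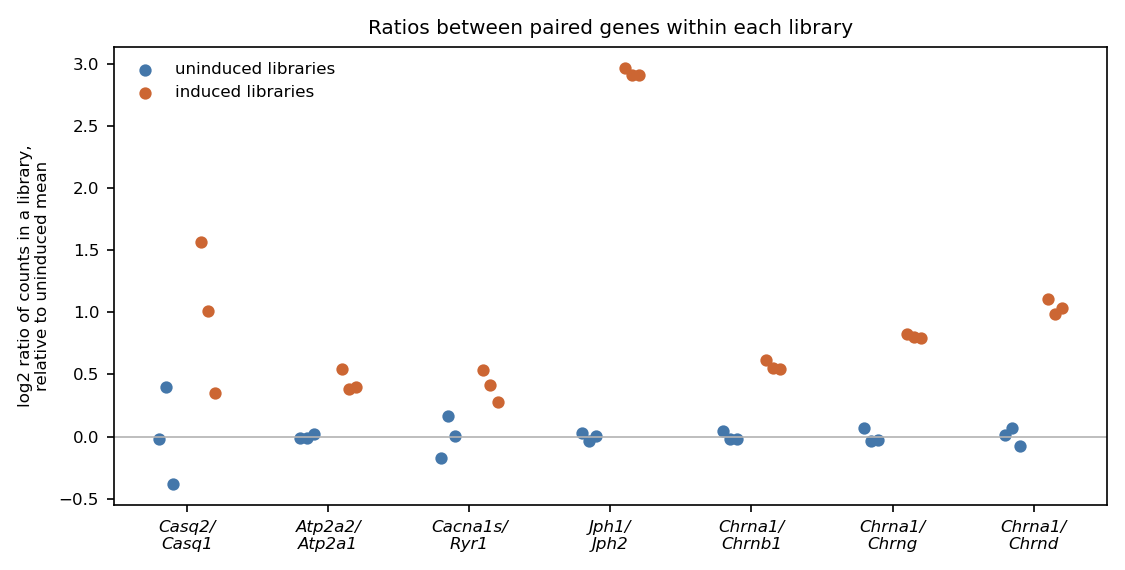
Log2 ratio of the counts of paired genes within each library (y axis), relative to the mean of the 3 uninduced libraries, for 7 pairs (x axis), with 1 point per library. Chrna1 stands 1.48-fold, 1.75-fold and 2.06-fold higher against Chrnb1, Chrng and Chrnd in induced libraries and Jph1 7.62-fold higher against Jph2, whereas the Casq2/Casq1 points overlap.

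Myod1 and its relatives bind the E-box, whose letters are CANNTG on either strand. Promoter windows from 250 bases before to 50 bases after the start were taken from RefSeq (GRCm38.p6) for the 7 of 10 genes that had one. E-box letters were found in 6 of these 7 windows and in 72.3% of all 32841 windows. The particular form CAGCTG, which is also a CANNTG, was found in 5 of the 7 (Cacna1s, Casq1, Atp2a1, Chrna1 and Cav3) and in 16.3% of all windows. For the MEF2 motif only 1 form of its outer letters was searched, CTA and TAG with any 4 bases between them. That form was in 0 of the 7 and in 3.69% of all windows. It takes in letters that are no MEF2 site and misses other forms of the motif, such as ttatttttag in the Casq2 window. The 0 therefore does not mean that no window holds MEF2 letters. Shown are the windows of Chrna1, which has the most matches and did not pass the test, of Atp2a1, which fell and has 1 match, and of Ryr1, which fell and has none, with CANNTG in capitals. A match here is a run of letters, and binding was not measured.
Chrna1, chr2:73580289-73580588, minus strand: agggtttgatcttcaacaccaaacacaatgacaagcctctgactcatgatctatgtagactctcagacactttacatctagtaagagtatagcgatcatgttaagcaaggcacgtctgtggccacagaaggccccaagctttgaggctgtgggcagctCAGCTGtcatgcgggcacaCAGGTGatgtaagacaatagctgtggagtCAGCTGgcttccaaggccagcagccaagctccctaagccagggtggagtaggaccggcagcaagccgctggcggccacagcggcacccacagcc
Atp2a1, chr7:126463024-126463323, minus strand: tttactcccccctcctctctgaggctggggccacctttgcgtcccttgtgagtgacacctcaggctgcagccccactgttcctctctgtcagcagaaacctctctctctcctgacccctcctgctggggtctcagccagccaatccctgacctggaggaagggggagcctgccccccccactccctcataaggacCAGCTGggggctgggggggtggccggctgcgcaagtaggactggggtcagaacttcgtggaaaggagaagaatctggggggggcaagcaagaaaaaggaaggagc
Ryr1, chr7:29125102-29125401, minus strand: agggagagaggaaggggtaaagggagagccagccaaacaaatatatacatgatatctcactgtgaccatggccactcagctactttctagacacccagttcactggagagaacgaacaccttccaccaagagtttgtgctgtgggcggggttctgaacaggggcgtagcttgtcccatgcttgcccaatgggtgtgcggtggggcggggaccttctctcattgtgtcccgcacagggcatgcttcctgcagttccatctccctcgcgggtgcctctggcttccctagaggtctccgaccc
The 3 matches of Chrna1 begin 92, 73 and 44 bases before the start and that of Atp2a1 begins 55 bases before it. These 3 windows are examples, and a link between matches and change was not tested.

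Cav3 (Entrez 12391, chromosome 6, 112459505 to 112472872) encodes the muscle form of caveolin, the coat protein of small membrane pits that take part in forming the transverse tubules. It was at 6.11, 6.08 and 6.26 CPM uninduced and 4.90, 4.79 and 5.97 CPM induced. The groups did not overlap, yet the log2 fold change of -0.23 ± 0.12 (SE) missed the threshold (edgeR adjusted p = 0.0863). Without the third induced library it was -0.34 (edgeR adjusted p = 0.0311). The broadly expressed caveolin Cav1 fell from 108 ± 3.97 to 27.0 ± 1.76 CPM (SD, n = 3), which is 4.01-fold lower (edgeR adjusted p = 3.6e-20). Cav3 counts per Cav1 count, described after the values were seen and not tested, went from 0.0568 ± 0.00122 to 0.193 ± 0.0173 (SD, n = 3).

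Levels of different genes were compared per kb of exon, using the union of the exons annotated in GENCODE, which gives too low a level where a long isoform is not used. In uninduced cells the order of CPM per kb was Chrna1 (77.7 to 81.6), Atp2a2 (52.3 to 53.3), Atp2a1 (16.7 to 17.3), Jph1 (8.76 to 9.62), Casq2 (6.43 to 6.83), Cav3 (5.25 to 5.41), Ryr1 (2.10 to 2.70), Cacna1s (1.10 to 1.33), Trdn (0.630 to 0.838) and Casq1 (0.166 to 0.302), and no neighbours overlapped. In induced cells Jph1 (16.4 to 16.7) stood above Atp2a1 (8.97 to 9.66). Casq2 (5.04 to 6.62) and Cav3 (4.14 to 5.16) overlapped there, and the rest of the order was the same. Casq2 exceeded Casq1 by 30.1 times per length in uninduced and 61.2 times in induced cells, and Atp2a2 exceeded Atp2a1 by 3.10 and 4.20 times.

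**Figure D4:**
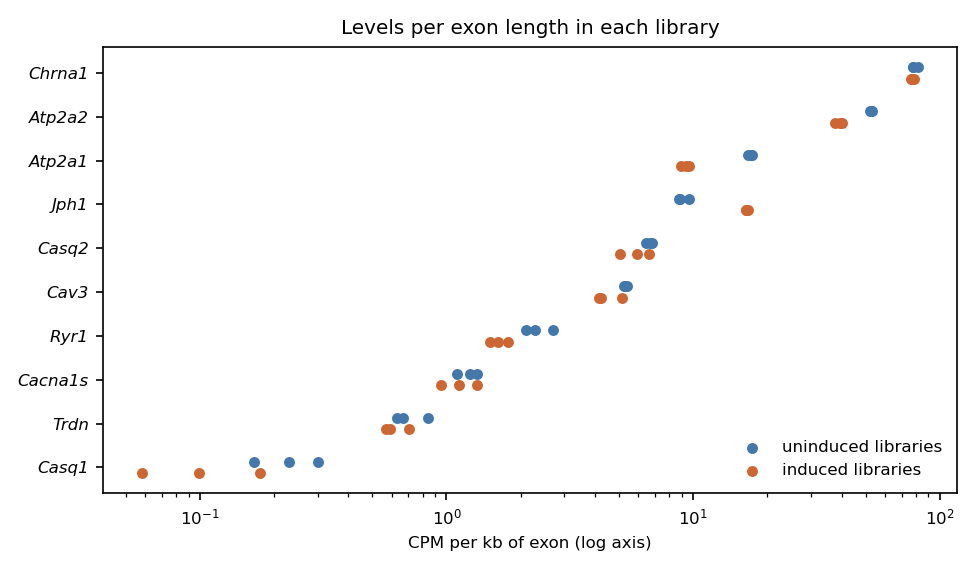
CPM per kb of exon (x axis, log scale) of the 10 genes in each of the 3 uninduced and 3 induced libraries (points). The levels run from Casq1 (0.233 uninduced) to Chrna1 (79.1), and Jph1 and Atp2a1 exchange places in induced cells.

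The surrounding pathway was described with 6 lists of 97 further genes, of which 84 had enough counts to be tested, 53 were lower, 21 higher and 10 not called. Over all tested genes 41.2% were lower and 41.3% higher, and no list was tested against these shares. Among other genes of the triad and of calcium release, 17 of 24 tested genes were lower, 4 higher and 3 not called, with a median of -0.49, where 41.2% of all tested genes were lower and 41.3% higher. Scaled by library size only, 23 were lower and 1 higher, where 76.7% and 15.2% of all genes were. Cacng1, the gamma subunit of the skeletal L-type channel, fell from 77.9 ± 7.53 to 14.6 ± 1.47 CPM (SD, n = 3), which is -2.42 ± 0.08 in log2 units (SE), while the beta subunit Cacnb1 was at -0.25 ± 0.08. Stac3, an adaptor that voltage sensing of release depends on, fell by 0.81 ± 0.11 and the release channel paralog Ryr3 by 0.44 ± 0.08 on the log2 scale. Ryr2, the heart form, had 1 count over all uninduced and 2 over all induced libraries. Itpr1, an inositol trisphosphate receptor that releases calcium from the same kind of store, rose from 32.1 ± 4.26 to 139 ± 5.74 CPM (SD, n = 3), which is 2.11 ± 0.07 in log2 units (SE, edgeR adjusted p = 5.9e-14). Tmem38b, a counter-ion channel of the store, rose by 0.42 ± 0.06 but was at -0.54 with library size only.

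Genes of calcium removal, buffering and store-operated entry were lower in 12 of 18 tested cases and higher in 4, with a median of -0.33, where 41.2% of all tested genes were lower and 41.3% higher. With library size only 15 were lower and 1 higher, where 76.7% and 15.2% of all genes were. Slc8a1, the sodium-calcium exchanger, fell by 2.14 ± 0.15 and the store-entry channel gene Orai2 by 0.89 ± 0.09 on the log2 scale. Its paralogs Orai1 and Orai3, named after their values were seen, were at 1.04 ± 0.08 and -0.26 ± 0.10. With library size only, Orai1 was at 0.08 and Orai3 at -1.22. Stim1, the calcium sensor of the store, rose from 16.7 ± 0.886 to 35.2 ± 1.42 CPM (SD, n = 3), which is 1.08 ± 0.07 in log2 units (SE, edgeR adjusted p = 2.7e-13). It was at 0.11 with library size only and was not called (edgeR adjusted p = 0.109). Atp2b2, a plasma membrane calcium pump, had 2 uninduced and 175 induced counts, a CPM ratio of 165 with a 95% counting interval of 44.9 to 1369.6. The third pump paralog Atp2a3 was at 1.31 ± 0.163 and 1.27 ± 0.304 CPM (SD, n = 3, edgeR adjusted p = 0.875). Small membrane proteins that inhibit the pumps were scarce. Sln (sarcolipin) had 27 counts over the uninduced and 3 over the induced libraries, a CPM ratio of 0.209 with a counting interval of 0.0406 to 0.679, and was not tested. Mrln (myoregulin), named after its value was seen, fell from 1.33 to 0.220 CPM, which is -2.59 ± 0.37 in log2 units (SE, edgeR adjusted p = 8.6e-07).

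At the neuromuscular junction, 8 of 11 tested genes were lower and 3 higher, with a median of -0.74, where 41.2% of all tested genes were lower and 41.3% higher. With library size only 10 were lower and 1 higher, where 76.7% and 15.2% of all genes were. Rapsn, which clusters acetylcholine receptors, fell from 78.2 ± 3.64 to 28.6 ± 2.62 CPM (SD, n = 3), which is -1.45 ± 0.06 in log2 units (SE), and Dok7, an activator of the receptor kinase Musk, fell by 1.11 ± 0.10. Colq, the collagen-like tail that anchors acetylcholinesterase, rose from 1.87 ± 0.123 to 19.3 ± 1.14 CPM (SD, n = 3), which is 3.37 ± 0.11 in log2 units (SE, edgeR adjusted p = 1.6e-18). The enzyme gene Ache was at 0.51 ± 0.18 (SE, edgeR adjusted p = 0.0135) but at -0.46 with library size only.

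Of 9 tested membrane excitability genes 4 were lower, 4 higher and 1 not called, close to the 41.2% lower and 41.3% higher over all tested genes, and the median log2 fold change was 0.52. With library size only, 5 were lower and 2 higher (76.7% and 15.2% over all genes) and that median was -0.44. Kcnj12, an inward rectifier potassium channel gene, fell from 1.81 ± 0.329 to 1.03 ± 0.158 CPM (SD, n = 3), which is -0.81 ± 0.25 in log2 units (SE, edgeR adjusted p = 0.0051). Cacna1g, a T-type calcium channel gene, rose by 3.73 ± 0.30 from 0.200 CPM.

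Of 9 other caveolar genes 5 were lower and 3 higher, with a median of -0.60, where 41.2% of all tested genes were lower and 41.3% higher. Library size only gave 8 lower and 0 higher, against 76.7% and 15.2% of all genes. Cav2 fell from 18.1 ± 1.09 to 4.5 ± 0.522 CPM (SD, n = 3), and the coat gene Cavin1 fell by 0.60 ± 0.04 on the log2 scale. Cavin3 rose by 1.00 ± 0.05 and Pacsin3 by 0.44 ± 0.07, and these were at 0.03 and -0.52 with library size only. Of calcium-calmodulin signalling genes, 7 of 13 were lower and 3 higher, with a median of -0.50 (13 lower and 0 higher with library size only), to be read against the same shares of all genes. Camk2g, a calmodulin-dependent kinase, fell by 1.21 ± 0.05 and Rcan2, a calcineurin regulator, by 1.31 ± 0.22. Rcan1, a calcineurin regulator that calcineurin itself induces, rose by 0.68 ± 0.07 and the calcineurin catalytic subunit Ppp3ca by 0.62 ± 0.05, but these were at -0.28 and -0.35 with library size only.

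**Figure D5:**
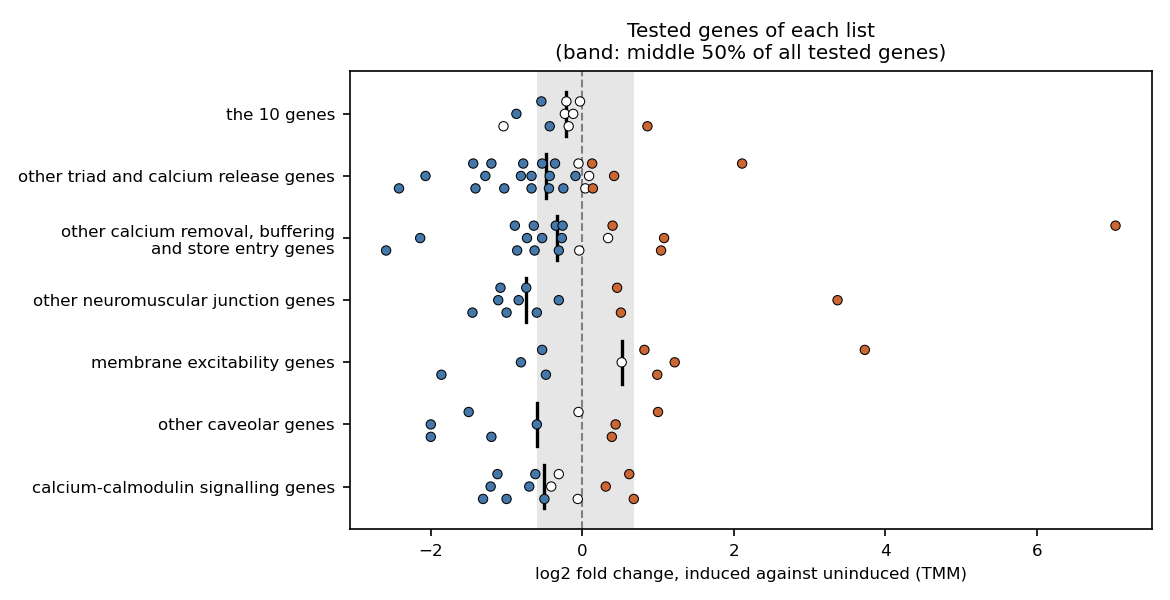
Log2 fold change (x axis, TMM scaling) of the tested genes in the set of 10 and in 6 surrounding lists (rows), filled where the test was passed, with a vertical bar at each median and a grey band over the middle 50% of all tested genes (-0.59 to 0.67). Most of the 10 genes lie inside the band, with Casq1 and Atp2a1 below it and Jph1 above it, and the point at 7.04 is the fitted value of Atp2b2, which had 2 uninduced counts.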

How the data were processed

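Polyadenylated RNA of 6 cultures was made into TruSeq libraries, per the labels' protocols. The submitters' processing notes name CASAVA, the aligners TopHat2 2.0.12 and Bowtie2 2.2.3, and the genome mm10 (GRCm38). Raw read counts per Entrez gene were deposited by the authors, and 13 entries without a symbol held 0.0153% of them. Which counter, strand setting and annotation were used is not given in the sources used here, so overlapping genes can share reads. Depth was 21.9 to 24.0 M counts uninduced and 21.5 to 24.5 M induced, and each gene's own counts limit its precision.

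Groups came from the sample titles. In R 4.3.3, genes were filtered with filterByExpr, scaled with TMM (factors 1.39 to 1.40 uninduced, 0.712 to 0.719 induced) and given to the two-sided quasi-likelihood F test of edgeR 4.0.16 (robust=TRUE, group as the only term), with Benjamini-Hochberg adjustment over 12969 genes. The SE was derived from the log2 change and its F statistic. The test was checked on simulated counts with 200 genes changed, in both directions, and a common dispersion. The simulation held no shift in library composition, so it does not bear on the choice of scaling. Ratios within a library were compared with exact permutation tests. Alternatives included DESeq2 1.42.0, limma-voom 3.58.1, other scalings and filters, a replicate block and leaving out each library. The 10 genes and all lists were chosen with earlier results of these data known. Named were the 10 genes, 13 paralogs or partners, and per list up to 2 higher and 2 lower genes of largest change with a mean of at least 1 CPM and no overlap; 2 of the latter are not reported here. Exon lengths came from GENCODE and promoters from RefSeq. The paralog comparison of proteins was not made.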

Additional observations from a re-analysis of the deposited data

How the results depend on the processing

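The number of lower calls among the 10 genes moved with scaling, filter, test and library, and was 3 with TMM, RLE, DESeq2 and limma-voom. It was 9 with upper-quartile scaling, with library size only (0 higher) and with library size after removing the 20 most abundant induced genes. It was 7 without a count filter, 1 against a 1.5-fold change, and 3 to 6 when each library was left out. The cause was not tested. With library size only, Jph1 turned to -0.10 and the median of membrane excitability genes to -0.44, and Cacna1s ran from -0.26 to 0.00 when each library was left out.

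For the surrounding lists, library size only left 1 higher gene of triad and release, 1 of calcium removal, 1 of the junction, 2 of excitability, 0 of caveolae and 0 of calcium-calmodulin signalling, with 8 lower caveolar and 13 lower signalling genes. Higher triad and release genes numbered 2 with upper-quartile scaling, 2 with the 20 most abundant genes removed and 2 without a count filter. Against a 1.5-fold change there were 11 lower and 1 higher triad genes, 5 lower removal genes, 1 higher junction gene, 1 lower excitability gene, 1 higher caveolar gene, and 4 lower and 0 higher signalling genes.

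Whether shared replicate numbers pair the libraries could not be settled. Correlations of deviations between same-numbered libraries were small, at 0.0787, 0.00739 and 0.0615, yet each library correlated best with its own number. With the replicate block 4 of the 10 genes were called lower, Casq2 being added (-0.19, edgeR adjusted p = 0.0346), and the exact permutation p of all 4 ratios was 0.25, the smallest that 3 pairs allow. Leaving out each library in turn moved the log2 ratio difference between 0.68 and 1.29 for Casq2/Casq1, 0.39 and 0.47 for Atp2a2/Atp2a1, 0.32 and 0.49 for Cacna1s/Ryr1 and 0.55 and 0.59 for Chrna1/Chrnb1. Counts limit Casq1, Chrne, Ryr2 and Sln.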
